A study of Mus musculus with 209 samples.

Results

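The 10 genes described here are the metallothioneins Mt1 and Mt2, the superoxide dismutases Sod1 and Sod2, the glutathione peroxidases Gpx1 and Gpx4, the peroxiredoxins Prdx1 and Prdx2, the thioredoxin Txn1 and the glutathione synthesis gene Gclm. They were chosen by symbol, and all 10 had a row in every table: 10 of 24450 genes in the oocyte and 2-cell tables and 10 of 24446 joined symbols in the epiblast tables. RNA was counted in single mouse MII oocytes (ovulated eggs halted at metaphase of the second meiotic division), in single 2-cell samples and in epiblast, the embryonic layer that forms the body. Oocytes and 2-cell samples came from C57BL/6 females of 6 to 8 weeks, collected 14 to 15 hours (oocytes) or 42 to 43 hours (2-cell) after hCG, the hormone that triggers ovulation. There were 14 wild-type (WT) and 19 knockout (KO) oocytes, and 8 WT and 9 KO 2-cell samples. The knockout carries the label "N14 maternal KO". It is taken as loss of Nlrp14, an NLRP family gene active in the egg, from the mother. The males were C57BL/6 or PWK, a wild-derived strain, and which of them fathered the 2-cell samples is not stated. Their counts are split by parent of origin, which needs parents of differing strains, as only PWK males would give. The 4 epiblast samples were WT, from C57BL/6 parents: 2 labelled IVC and 2 labelled E6.5 ND. E6.5 is embryonic day 6.5, and the labels do not spell out IVC or ND.

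Metallothioneins are small cysteine-rich proteins that hold zinc and copper, and their genes are switched on by metals through the zinc-sensing transcription factor MTF1. Superoxide dismutases turn superoxide into hydrogen peroxide, which glutathione peroxidases and peroxiredoxins then reduce with electrons from glutathione or thioredoxin. The mouse egg carries RNA made during its growth, transcribes almost nothing at MII, and begins broad transcription of the embryo's own genome at the 2-cell stage, when metallothionein RNA is known to appear.

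All 10 genes matched a promoter in the RefSeq tables of build GRCm38.p6, in 13 windows of 300 bases around the gene start, of which Gpx4 had 4. These coordinates were used for sequence only, since the counts were made on build mm9. A metal response core, the short sequence MTF1 recognises, was searched for as TGCACNC or TGCGCNC on both strands. It was found 3 times in the window of Mt1, 4 times in that of Mt2 and 3 times in that of Gclm, and in no window of the other 7 genes. Of 32851 promoter windows of this length, 25.7% held at least 1 match and 1.97% held 3 or more. The 3 windows with matches are shown because they set Mt1, Mt2 and Gclm apart from the other members. Capitals mark the matches, and a match printed as its reverse complement lies on the other strand.
Mt1, chr8:94178839-94179138, + strand: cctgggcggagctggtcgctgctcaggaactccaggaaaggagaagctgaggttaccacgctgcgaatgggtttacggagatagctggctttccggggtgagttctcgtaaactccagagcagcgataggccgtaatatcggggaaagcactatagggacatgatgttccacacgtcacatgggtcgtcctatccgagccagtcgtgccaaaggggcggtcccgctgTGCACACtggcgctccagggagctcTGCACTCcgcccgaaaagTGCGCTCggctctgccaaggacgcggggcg
Mt2, chr8:94172368-94172667, + strand: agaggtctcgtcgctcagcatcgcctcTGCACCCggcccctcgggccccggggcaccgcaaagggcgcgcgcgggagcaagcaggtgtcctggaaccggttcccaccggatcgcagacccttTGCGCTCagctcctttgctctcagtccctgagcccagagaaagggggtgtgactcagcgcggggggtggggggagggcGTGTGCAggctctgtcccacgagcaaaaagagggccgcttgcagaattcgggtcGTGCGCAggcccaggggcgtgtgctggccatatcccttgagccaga
Gclm, chr3:122245307-122245606, + strand: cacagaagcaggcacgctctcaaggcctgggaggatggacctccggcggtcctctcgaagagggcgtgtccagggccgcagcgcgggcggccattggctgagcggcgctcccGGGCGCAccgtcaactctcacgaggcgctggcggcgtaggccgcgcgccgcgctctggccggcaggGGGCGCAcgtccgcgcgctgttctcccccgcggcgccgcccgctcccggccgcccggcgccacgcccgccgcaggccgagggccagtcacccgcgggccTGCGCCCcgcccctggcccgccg

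All 3 matches of Mt1 lay on the strand of the gene, while Mt2 had 2 on each strand and Gclm had 1 on its own strand and 2 on the other. The antioxidant response core, the site of the stress regulator NRF2, was searched for as TGACNNNGC on both strands. It occurred once each in the windows of Gclm, Prdx1, Mt2 and Sod1, against 12.4% of all windows. The match in Gclm overlapped 1 of its metal response cores. These are matches of letters, and binding was not measured here.

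Library totals ran from 2704050 to 15007301 counts over the oocytes and 2-cell samples and from 10241401 to 24047088 over the epiblast samples. Values are CPM, a gene's count scaled to a fixed total of gene counts per library, and a pooled value is the summed counts of a group over its summed totals. Each oocyte or 2-cell library is 1 cell and no animal is named, so each of these groups was treated as 1 sample. Their ratios therefore carry a 95% interval for counting error only and no test, and 2-fold serves as a mark of size, read only for genes that reach 10 CPM in 1 of the pools compared. Nlrp14 itself was at 225 to 3307 CPM in WT oocytes (median 407) and at 0.643 to 73.2 CPM in KO oocytes (median 37.1). In 2-cell samples it was at 106 to 477 CPM in WT and 29.4 to 86.4 CPM in KO, so the groups did not overlap at either stage. Oocyte markers were detected in full in every oocyte and 2-cell group. Of 8 cumulus and granulosa markers, 6 had a count in WT and 5 in KO oocytes, with summed levels of 44.2 to 104 CPM and 46.2 to 161 CPM.

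Libraries stood apart in 2 ways that touch the results. By spike-in share and by the share of the ribosomal transcript Rn45s, the oocytes fell into 10 WT and 7 KO libraries whose spike-in share passed 0.01%, 3 WT and 10 KO with less spike-in and Rn45s under 1%, and 1 WT and 2 KO others. These sets were defined from the data and are unevenly spread over the genotypes, and all 2-cell libraries were of the spike-in kind. WT 2-cell replicate 8 was within the range of the KO 2-cell samples for 8 of the 10 members, and within the range of the other WT samples for Sod1 alone. Its Nlrp14 level of 106 CPM was the lowest of the WT samples, though above every KO sample. Its spike-in share was 0.0583%, against 0.101 to 0.135% in the other WT and 0.0478 to 0.0958% in the KO samples. The members' ratios by total counts and their paternal shares are given with and without it. The results under other scalings, the counts over other gene lists and the likeness ranking include it. Ratios of single alleles include it unless said otherwise.

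In MII oocytes the members differed little between genotypes, and the metallothioneins were close to the limit of counting. Of the 6 members that reached 10 CPM in a pool, none differed by 2-fold between KO and WT. Over all 6325 genes tested, 2.04% passed 2-fold upward and 2.39% downward in KO oocytes. Mt1, Mt2, Gpx1 and Gpx4 stayed under 10 CPM in both pools. The median log2 ratio of KO over WT was -0.19 over these 6 members and 0.02 over all genes.

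Metallothionein RNA was nearly missing from oocytes. Mt1 was at 0 to 4.13 CPM in WT (median 0.377) and at 0 to 2.88 CPM in KO oocytes, where 11 of 19 libraries had no count. Mt2 was at 0 to 1.90 CPM in WT (median 0.174) and at 0 to 0.527 CPM in KO oocytes (median 0.116). Summed over libraries Mt1 had 85 counts in WT and 53 in KO oocytes, and Mt2 had 51 and 17. The genotypes overlapped for both genes. WT replicate 14 alone held 39 of the 85 WT counts of Mt1, and without it the log2 ratio of KO over WT moved from -1.11 to -0.36. Without KO replicate 9 it was -1.77.

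The dismutases overlapped between genotypes. Sod1, the cytosolic copper and zinc enzyme, was at 48.4 to 124 CPM in WT (median 73.5) and 40.0 to 107 CPM in KO oocytes (median 68.1). Sod2, the manganese enzyme of mitochondria, was at 41.5 to 109 CPM in WT (median 94.3) and 25.6 to 124 CPM in KO oocytes (median 54.9). The lower KO median of Sod2 went with the library sets. Within spike-in libraries its pooled level was 97.8 CPM in WT and 99.0 CPM in KO, and within the libraries with little Rn45s it was 47.7 and 47.1 CPM.

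Gpx1, the general glutathione peroxidase of the cytosol, was at 0 to 20.4 CPM in WT (median 8.19) and 0 to 20.1 CPM in KO oocytes (median 7.78). Gpx4, which reduces peroxides of membrane lipids, was at 0.0943 to 12.6 CPM in WT (median 4.17) and 0 to 10.8 CPM in KO oocytes (median 4.57). The genotypes overlapped for both genes. Txn1, the thioredoxin that feeds peroxiredoxins, was at 2.89 to 38.7 CPM in WT and 1.71 to 23.5 CPM in KO oocytes, again overlapping. Its pooled log2 ratio of KO over WT was -0.54 (95% interval -0.65 to -0.43). Without WT replicate 14, which held 365 of the 1436 WT counts of Txn1, it was -0.25, outside that interval. Gclm, the modifier subunit of the enzyme that limits glutathione synthesis, was at 2.29 to 18.1 CPM in WT (median 9.59) and 4.35 to 33.6 CPM in KO oocytes (median 9.87). Within the spike-in libraries none of the 6 members that reached 10 CPM there passed 2-fold. Of all 6375 genes tested there, 9.41% passed upward and 3.69% downward. Within those with little Rn45s 1 of 6 members did, against 1.98% of 5957 genes upward and 2.03% downward. This was Gclm at -1.01 (-1.17 to -0.84), whereas it was at 0.31 (0.13 to 0.48) in spike-in libraries. In spike-in libraries Txn1 was just under 10 CPM, at 9.89 CPM in WT and 4.76 CPM in KO. The log2 ratio of Txn1 there was -1.05 (-1.26 to -0.85).

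Prdx2, a peroxiredoxin of the cytosol, fell into separate clusters that followed the library sets and not the genotype. Its pooled level was 1912 CPM in WT and 1650.3 CPM in KO spike-in libraries, against 147 and 175 CPM in the libraries with little Rn45s. The log2 ratio of spike-in over low-Rn45s libraries was 3.70 (95% interval 3.66 to 3.74) in WT and 3.24 (3.21 to 3.26) in KO oocytes. Over all libraries the KO to WT ratio of Prdx2 was -0.68 on the log2 scale (-0.69 to -0.67), and within the 2 larger sets it was -0.21 and 0.25, so the pooled difference moved with the make-up of the groups. Prdx1, the close relative of Prdx2, had pooled levels of 879 and 904 CPM in the same WT sets and overlapped between them. In KO its spike-in libraries were lower, at 464 to 1005 CPM against 1026 to 1391 CPM, the opposite sense to Prdx2. Gpx1 was 5.30-fold and Sod2 2.05-fold higher in spike-in than in low-Rn45s WT libraries, in the same sense as Prdx2. The RefSeq gene table lists pseudogenes of Prdx1, Prdx2, Gpx4 and Txn1, and how reads shared with such copies were counted is not given in the sources used here.

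**Figure D1:**
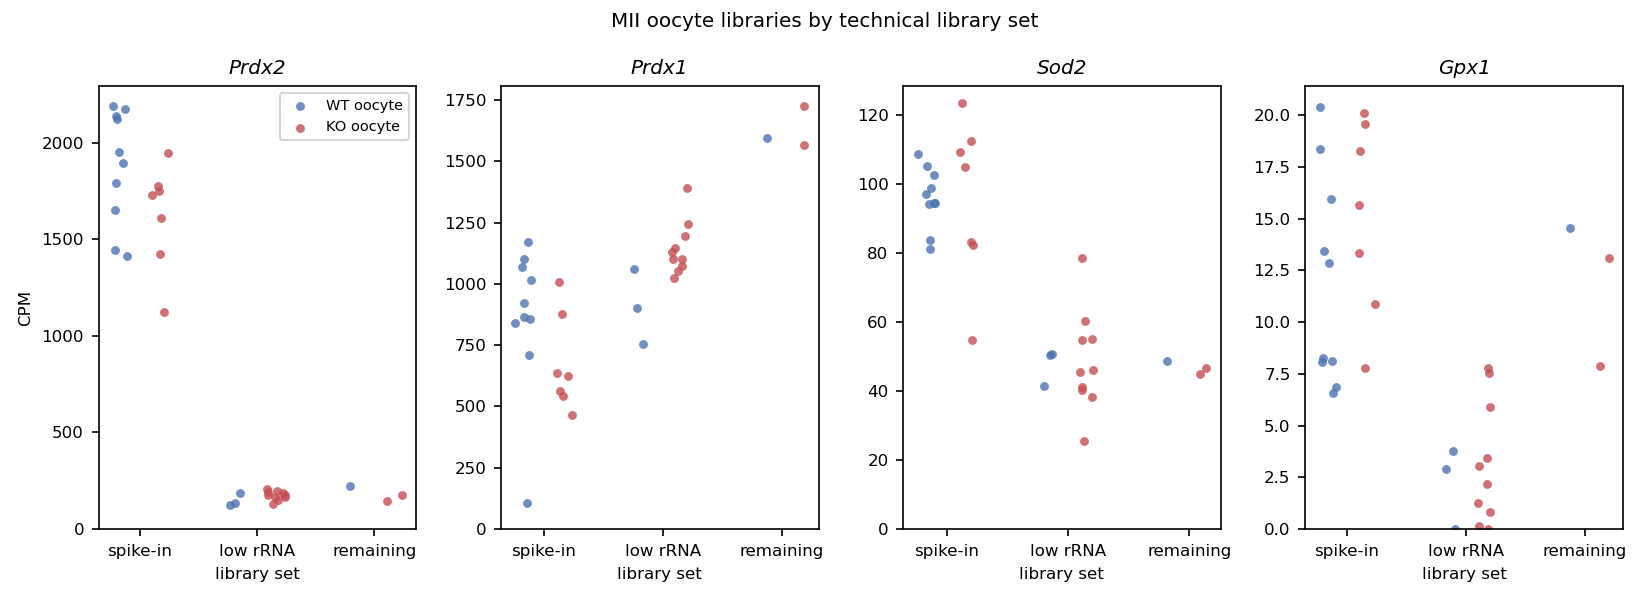
Level in CPM (linear axis) of 4 genes in single MII oocytes, 1 point per library, split by technical library set and genotype. Prdx2 is at 1123 CPM or more in every spike-in library and at 222 CPM or less in every other library, in both genotypes, while Prdx1 in KO is lower in spike-in than in low-rRNA libraries (those with little Rn45s).

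Between the MII oocyte and the 2-cell stage, 7 of the 10 members were at least 2-fold higher in WT, and none was 2-fold lower. Among all 8532 genes tested 41.1% passed 2-fold upward and 14.3% downward, with a median log2 ratio of 0.64 against 1.86 for the members. The metallothioneins had by far the largest ratios of the 10. In KO samples 5 of 10 were 2-fold higher and none lower, against 23.6% and 17.4% of 7179 genes, and the median was 0.93 against 0.23 for all genes.

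WT 2-cell samples held 46.4 to 714 CPM of Mt1 (median 373) and 24.2 to 565 CPM of Mt2 (median 446). Every one of them was above the highest oocyte. The log2 ratio of 2-cell over MII was 8.84 (95% interval 8.53 to 9.16) for Mt1 and 9.49 (9.09 to 9.92) for Mt2, which is 458-fold and 719-fold. Without WT oocyte replicate 14 the ratio of Mt1 became 9.59. In KO samples the same ratios were 6.52 (6.12 to 6.94) and 6.72 (6.03 to 7.51), with every 2-cell sample again above every oocyte. Without KO oocyte replicate 9, which held 21 of the 53 KO counts, the KO ratio of Mt1 became 7.17. Against spike-in, low-Rn45s and other oocytes the WT ratios were 9.11, 11.59 and 6.43 for Mt1 and 9.37, 13.51 and 7.55 for Mt2. The low-Rn45s and other values lay outside the WT intervals above. Low-Rn45s WT oocytes held 4 counts of Mt1 and 1 of Mt2.

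Gpx1 went from a pooled 9.21 CPM in WT oocytes to 190.2 CPM in WT 2-cell samples, a log2 ratio of 4.37 (4.27 to 4.46). Gpx4 went from 4.36 to 113 CPM, a log2 ratio of 4.69 (4.56 to 4.83). Neither gene overlapped between the WT stages. In KO samples the ratios were 2.52 (2.42 to 2.62) for Gpx1 and 1.12 (0.97 to 1.27) for Gpx4, and Gpx4 overlapped between the KO stages.

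Txn1 and Gclm followed at smaller size in WT, with log2 ratios of 1.77 (1.67 to 1.87) and 1.96 (1.86 to 2.06). In KO samples both stayed within 2-fold of all oocytes pooled, at 0.51 and 0.74, but this depended on the oocyte set. Against spike-in, low-Rn45s and other KO oocytes Txn1 was at 1.44, 0.31 and -0.80, and Gclm at 0.80, 1.03 and -0.62. In WT the same order gave 2.18, 1.85 and 0.21 for Txn1, and 2.49, 1.42 and 1.44 for Gclm. Without KO 2-cell replicate 4 the pooled KO ratio of Txn1 was 0.11. Sod1 was higher at the 2-cell stage in both genotypes, by 1.40 in WT and 1.16 in KO on the log2 scale, with no overlap of stages. Sod2, at 0.57 and 0.50, was within 2-fold of all oocytes pooled in both. Against spike-in oocytes Sod2 was at 0.23 in WT and -0.06 in KO. It passed 2-fold against low-Rn45s oocytes, at 1.27 and 1.01, and against the other oocytes, at 1.24 and 1.05.

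The peroxiredoxins stayed within 2-fold: Prdx1 at -0.21 in WT and 0.35 in KO, and Prdx2 at -0.11 and 0.05. For Prdx2 the direction depended on the oocytes chosen. Against spike-in oocytes, the kind all 2-cell libraries are, the 2-cell level was lower, at -0.77 in WT and -1.08 in KO. Against low-Rn45s oocytes it was higher, at 2.93 and 2.16. Prdx2 was not alone in this. In KO the sign of Prdx1 also differed, at 0.94, 0.14 and -0.39 against spike-in, low-Rn45s and other oocytes. The signs of Sod2, Txn1 and Gclm in KO differed between oocyte sets too, as given above. Without WT 2-cell replicate 8 the same 7 members were 2-fold higher in WT, from 1.29 for Sod1 to 9.19 for Mt1 and 9.86 for Mt2, with Gpx1 at 4.70, Gpx4 at 5.04, Txn1 at 2.10 and Gclm at 2.14. Sod2 was then at 0.72, Prdx1 at -0.34 and Prdx2 at 0.03, the last with its sign turned. The share of all genes 2-fold higher without replicate 8 is not given here. The metallothioneins and Gpx1 were at least 2-fold higher against each set in both genotypes, whereas Gpx4 in KO was at 0.45 against spike-in oocytes and so within 2-fold.

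DESeq2 size factors shifted the median of all genes from 0.64 to -0.34 in WT. Among genes past 2-fold, the share that was higher in WT 2-cell samples was 74.1% by total counts, 55.3% by TMM and 43.1% by DESeq2 factors. In KO it was 57.6, 41.9 and 33.7%. The comparisons between stages and between genotypes share the 2-cell samples. Under DESeq2 factors Mt1, Mt2, Gpx1 and Gpx4 stayed 2-fold higher in WT at 7.85, 8.50, 3.38 and 3.71, and Prdx1 and Prdx2 became 2-fold lower at -1.20 and -1.09. In KO, 3 members stayed 2-fold higher by either TMM or DESeq2 factors: Mt1, Mt2 and Gpx1.

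**Figure D2:**
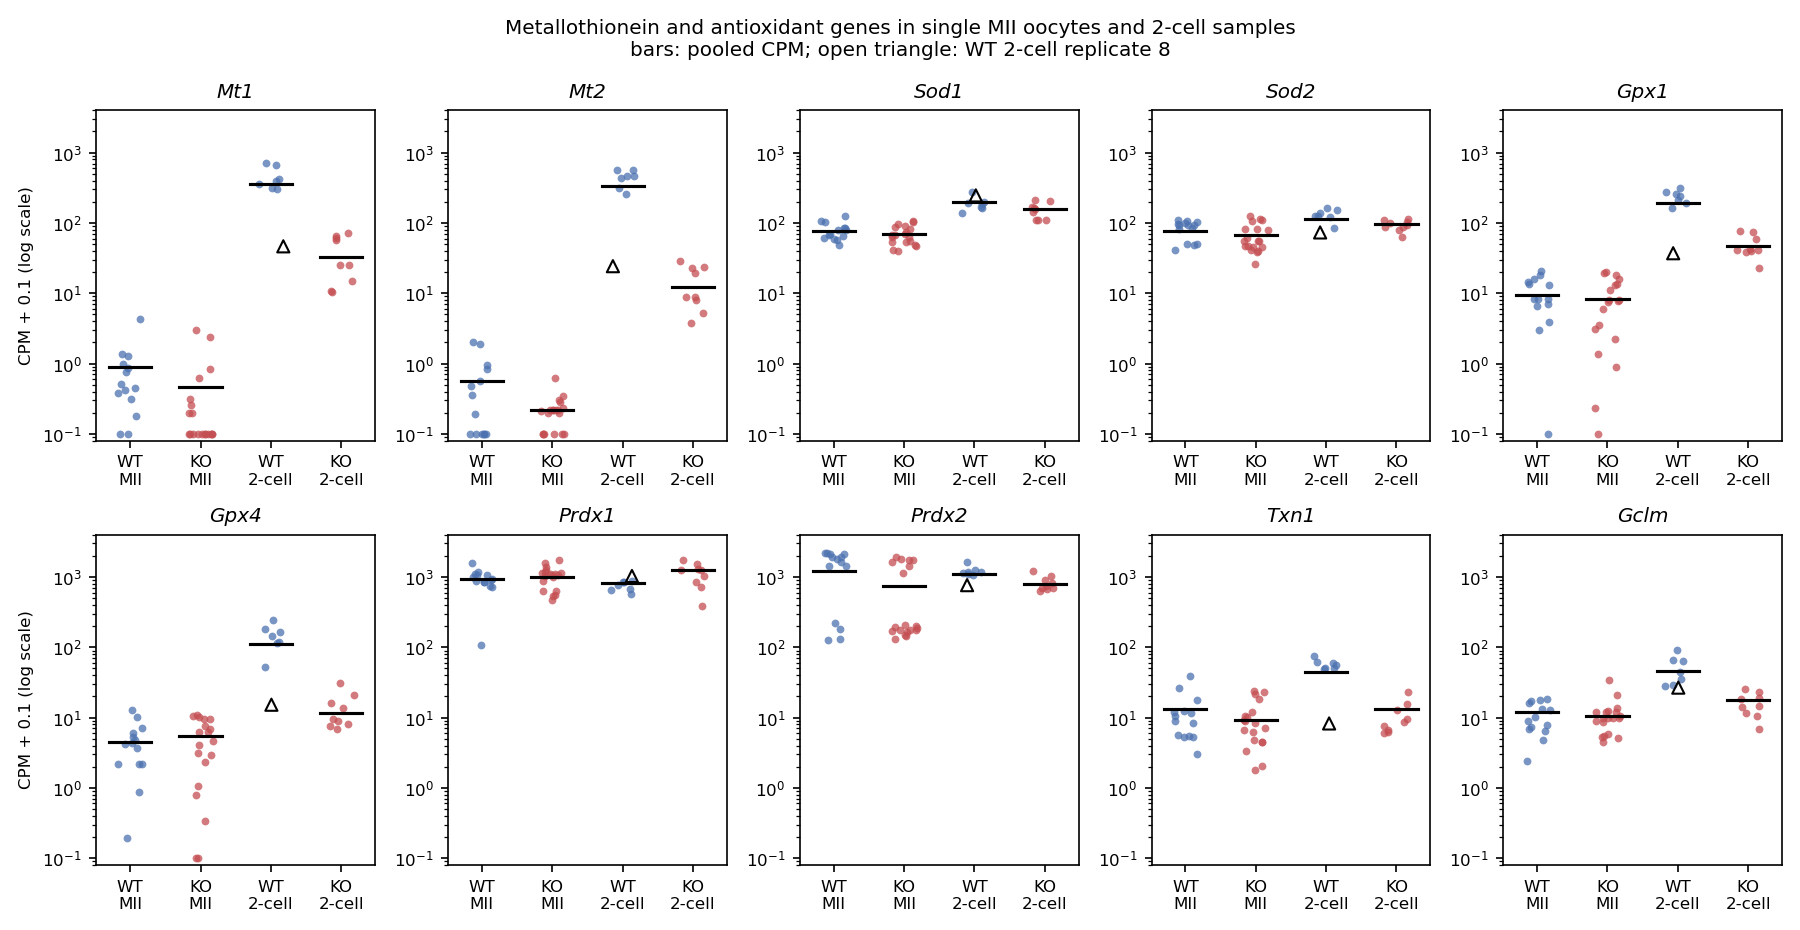
Level of each member in every single MII oocyte and 2-cell sample, as CPM + 0.1 on a log axis, with bars at the pooled CPM of each group and an open triangle for WT 2-cell replicate 8. Mt1 and Mt2 are below 5 CPM in every oocyte, high in WT 2-cell samples and lower in KO 2-cell samples, and the triangle lies among the KO samples for 8 of the 10 genes.

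In 2-cell samples 6 of the 10 members were at least 2-fold lower in KO than in WT, namely Mt1, Mt2, Gpx1, Gpx4, Txn1 and Gclm, and none was 2-fold higher. Among 8416 genes tested 31.6% passed 2-fold downward and 5.96% upward. The median log2 ratio was -1.59 over the members and -0.35 over all genes. Without WT replicate 8 the same 6 members were 2-fold lower. Among all genes 981 in place of 502 were then 2-fold higher, and the share 2-fold lower is not given for that setting. For Gclm alone every KO sample lay below every WT sample, as for 1.37% of all genes. Without WT replicate 8 this held for 6 members, the same 6 named above, against 13% of all genes.

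The metallothioneins differed most. Mt1 was at 46.4 CPM in WT replicate 8 and at 305 to 714 CPM in the other 7 WT samples, against 10.2 to 72.2 CPM in KO (median 25.5). The log2 ratio of KO over WT was -3.44 (95% interval -3.50 to -3.37), a 10.8-fold lower pooled level, and -3.79 without replicate 8. Mt2 was at 24.2 CPM in replicate 8 and at 256 to 565 CPM in the other WT samples, against 3.73 to 28.4 CPM in KO (median 8.88). Its log2 ratio was -4.79 (-4.89 to -4.68), 27.6-fold lower, and -5.16 without replicate 8. Apart from replicate 8 there was a wide gap between the genotypes for both genes, and every KO sample still had counts of both.

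Within the KO samples Mt1 was not evenly low: replicates 1, 2, 7 and 8 were at 72.2, 65.3, 60.2 and 57.2 CPM, and replicates 4, 6 and 9 at 10.8, 14.9 and 10.2 CPM, with replicates 3 and 5 between them. Mt2 divided the same samples in the same way, at 19.4 to 28.4 CPM in the former and 3.73 to 7.89 CPM in the latter. The ratio of Mt1 to Mt2 CPM in a library had a median of 1.10 in WT (0.773 to 1.92) and 2.88 in KO samples (1.30 to 3.10). The ratio is not corrected for length, so only its difference between groups can be read.

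Gpx1 was at 37.0 CPM in WT replicate 8 and 162 to 314 CPM in the other WT samples, against 22.4 to 77.7 CPM in KO (median 40.6). Its log2 ratio was -2.0 (-2.06 to -1.94), and -2.33 without replicate 8. Gpx4 was at 15.1 CPM in replicate 8 and 53.0 to 242 CPM in the other WT samples, against 6.80 to 31.1 CPM in KO (median 9.38). Its log2 ratio was -3.28 (-3.40 to -3.17), and -3.63 without replicate 8. Both peroxidases thus stood clear of KO in 7 of 8 WT samples.

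Txn1 was at 8.15 CPM in replicate 8 and 48.6 to 74.0 CPM in the other WT samples, against 5.91 to 22.9 CPM in KO (median 8.46). Its log2 ratio was -1.79 (-1.91 to -1.67), and -2.13 without replicate 8. Gclm was at 26.6 to 90.1 CPM in WT (median 40.3) and 6.84 to 25.5 CPM in KO (median 14.7), with a log2 ratio of -1.39 (-1.50 to -1.28), and -1.57 without replicate 8. Gclm is the member for which replicate 8, the lowest WT sample, still lay above every KO sample. KO replicate 4, the library with the highest total, held 343 of the 807 KO counts of Txn1. Without it the ratios were -2.20 for Txn1 and -1.61 for Gclm. Those of Mt1, Mt2 and Gpx4 were then smaller in size, at -3.16, -4.50 and -3.11.

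The dismutases overlapped. Sod1 was at 140 to 272 CPM in WT and 110 to 215 CPM in KO, a log2 ratio of -0.34 (-0.39 to -0.30), which equals the median of all genes to within 0.01. Without replicate 8 it was -0.23. Sod2 was at 73.2 to 165 CPM in WT and 63.8 to 112 CPM in KO, a log2 ratio of -0.27 (-0.33 to -0.22), and -0.43 without replicate 8.

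The peroxiredoxins went opposite ways. Prdx1 was at 580.2 to 1033 CPM in WT (median 807) and 387 to 1726 CPM in KO (median 1239.6), a log2 ratio of 0.62 (0.60 to 0.64), with 7 of 9 KO samples above the WT median. Prdx2 was at 765 to 1626 CPM in WT (median 1161) and 622 to 1217 CPM in KO (median 740.5), a log2 ratio of -0.52 (-0.54 to -0.50), with 8 of 9 KO samples below the WT median. Both remained within 2-fold and overlapped, and without replicate 8 the ratios were 0.74 and -0.66. Relative to the median of all genes Prdx1 was 0.97 higher and Prdx2 0.17 lower on the log2 scale.

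Other scalings moved all genes together. The median log2 ratio of all genes was -0.35 by total counts, -0.07 by TMM, 0.19 by DESeq2 size factors and 0.47 when samples were scaled by their spike-in counts. The last setting was chosen after seeing the data, and whether the same amount of spike-in was added to each sample is not stated. Among genes past 2-fold, the share that was higher in KO was 15.9, 30.7, 47.0 and 63.2% in that order. Mt1, Mt2, Gpx1 and Gpx4 were at least 2-fold lower under all 4, from -2.61 to -3.44 for Mt1 and from -3.96 to -4.79 for Mt2. Gclm came within 2-fold by DESeq2 factors (-0.85) and by spike-ins (-0.57), and Txn1 by spike-ins (-0.97). Prdx1 passed 2-fold higher by DESeq2 factors (1.16) and by spike-ins (1.44), and the signs of Sod1, Sod2 and Prdx2 turned positive under both, that of Sod2 also by TMM (0.01).

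**Figure D3:**
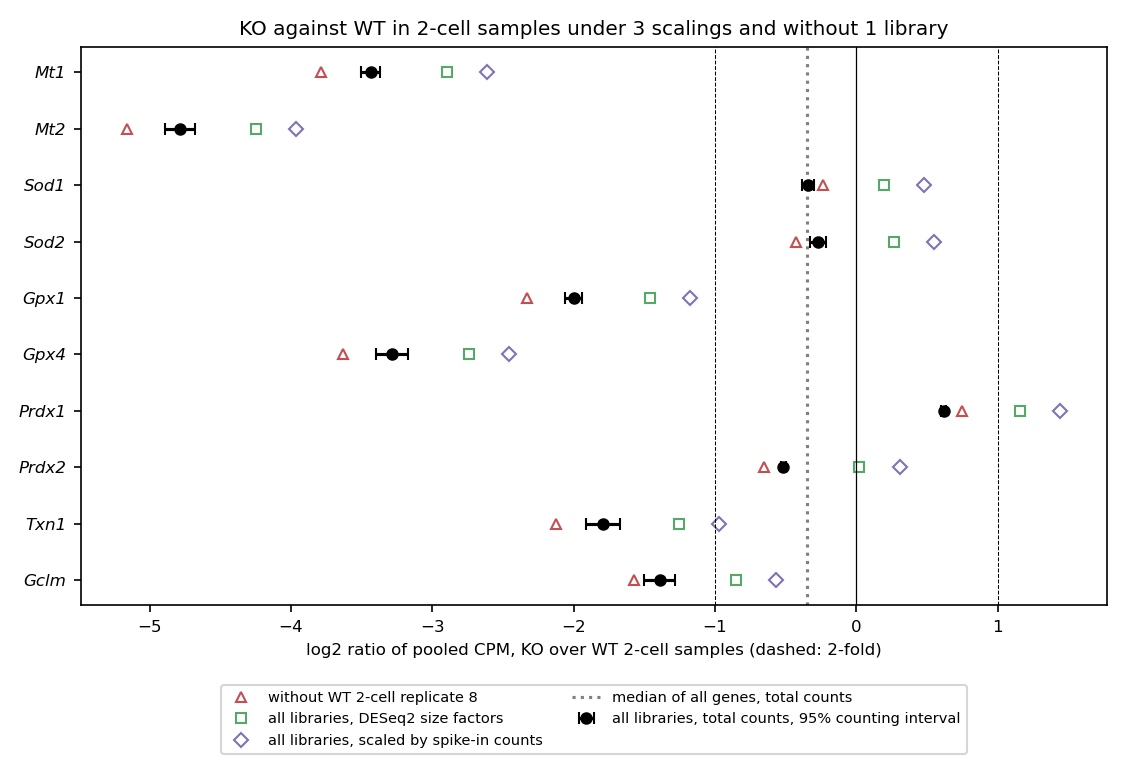
Log2 ratio of pooled CPM of KO over WT 2-cell samples for the 10 members, with 95% counting intervals by total counts (filled circles), without WT replicate 8 (triangles), by DESeq2 size factors (squares) and by spike-in counts (diamonds). The dashed lines mark 2-fold and the dotted line the median of all genes at -0.35; Mt1, Mt2, Gpx1 and Gpx4 lie beyond 2-fold lower under each setting drawn.

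Allele tables split part of the 2-cell counts by parent of origin. Oocyte columns are not split there. The members had 9 of 10 genes with at least 50 allele-assigned counts in both groups, and Gpx4 had 5 assigned counts in WT and 4 in KO, too few for a share. Over all genes the paternal share of assigned counts was 14.6% in WT and 2.80% in KO. By library it was 9.03 to 24.7% in the WT samples other than replicate 8, 4.00% in replicate 8 and 1.21 to 8.68% in KO.

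The metallothioneins kept high paternal shares in both genotypes. In WT the paternal share was 43.1% for Mt1 (95% Clopper-Pearson interval 42.0 to 44.2) and 53.9% for Mt2 (52.9 to 54.9). In KO it was 39.6% (36.5 to 42.7) and 59.5% (54.9 to 64.0). Single WT samples ran from 24.7 to 56.4% for Mt1 and from 50.7 to 57.1% for Mt2. Single KO samples, with fewer assigned counts, ran from 19.4 to 60.0% and from 44.3 to 80.0%. Counts of both alleles were lower in KO. Paternal Mt1 was at 78.1 CPM in WT and 6.22 CPM in KO, 12.6-fold lower, and maternal Mt1 at 103 and 9.51 CPM, 10.8-fold lower. For Mt2 the paternal counts were 26.3-fold and the maternal counts 33.1-fold lower.

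The dismutases showed mainly maternal counts, and their paternal counts were lower in KO. For Sod1 the paternal share was 13.4% in WT (12.53 to 14.3) and 1.75% in KO (1.44 to 2.10). Paternal Sod1 was at 18.9 CPM in WT and 1.83 CPM in KO, a log2 ratio of -3.37 (-3.67 to -3.09), while maternal Sod1, at 123 and 103 CPM, gave -0.26 (-0.31 to -0.20). For Sod2 the paternal share was 29.0% in WT (25.7 to 32.5) and 7.45% in KO (5.81 to 9.38), and the maternal log2 ratio of 0.15 had an interval of -0.01 to 0.32 that spans 0. Without replicate 8 it was 0.18 (0.01 to 0.36), which does not.

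The peroxiredoxins were mainly maternal too. Prdx1 had a paternal share of 18.02% in WT (17.6 to 18.5) and 3.52% in KO (3.38 to 3.66). Its paternal counts were lower in KO, at a log2 ratio of -1.67 (-1.74 to -1.60), and its maternal counts higher, at 0.93 (0.90 to 0.95), from 572 to 1086 CPM. Among assigned counts of Prdx1 the maternal ones alone were higher in KO. Prdx2 was almost wholly maternal, with a paternal share of 1.91% in WT (1.58 to 2.29) and 0.465% in KO (0.309 to 0.671).

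Gpx1, Txn1 and Gclm were lower in KO on both alleles, more so on the paternal one. The paternal share of Gpx1 was 41.2% in WT (38.7 to 43.8) and 23.0% in KO (19.7 to 26.6). That of Txn1 was 44.0% in WT (40.3 to 47.8) and 28.2% in KO (23.2 to 33.7). That of Gclm was 48.4% in WT (45.5 to 51.4) and 14.7% in KO (11.9 to 17.8). For Gclm the paternal log2 ratio was -3.21 (-3.55 to -2.88) and the maternal one -0.76 (-0.94 to -0.59). In KO, Gclm varied between samples from 2.04 to 77.8%, and its median sample was at 6.90%.

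Replicate 8 was at 0.761% paternal for Sod1, 5.02% for Prdx1 and 7.28% for Gclm, and at 56.4% for Mt1 and 57.1% for Mt2. Without it the WT shares were 42.7% for Mt1, 53.8% for Mt2, 18.3% for Sod1, 34.4% for Sod2, 42.2% for Gpx1, 23.9% for Prdx1, 2.20% for Prdx2, 45.2% for Txn1 and 54.8% for Gclm. Paternal counts of the 9 genes were lower in KO with and without this sample. Over all genes the paternal share was lower in KO too, at 2.79% against 14.6% in WT and 18.2% without replicate 8. The direction is therefore not particular to the members. The shares rest on reads that cover a strain difference, 12.4 to 14.9% of the counts of Sod2 and Prdx2 and 85.2 to 89.6% of those of Prdx1, and a mapping bias towards either strain was not tested.

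**Figure D4:**
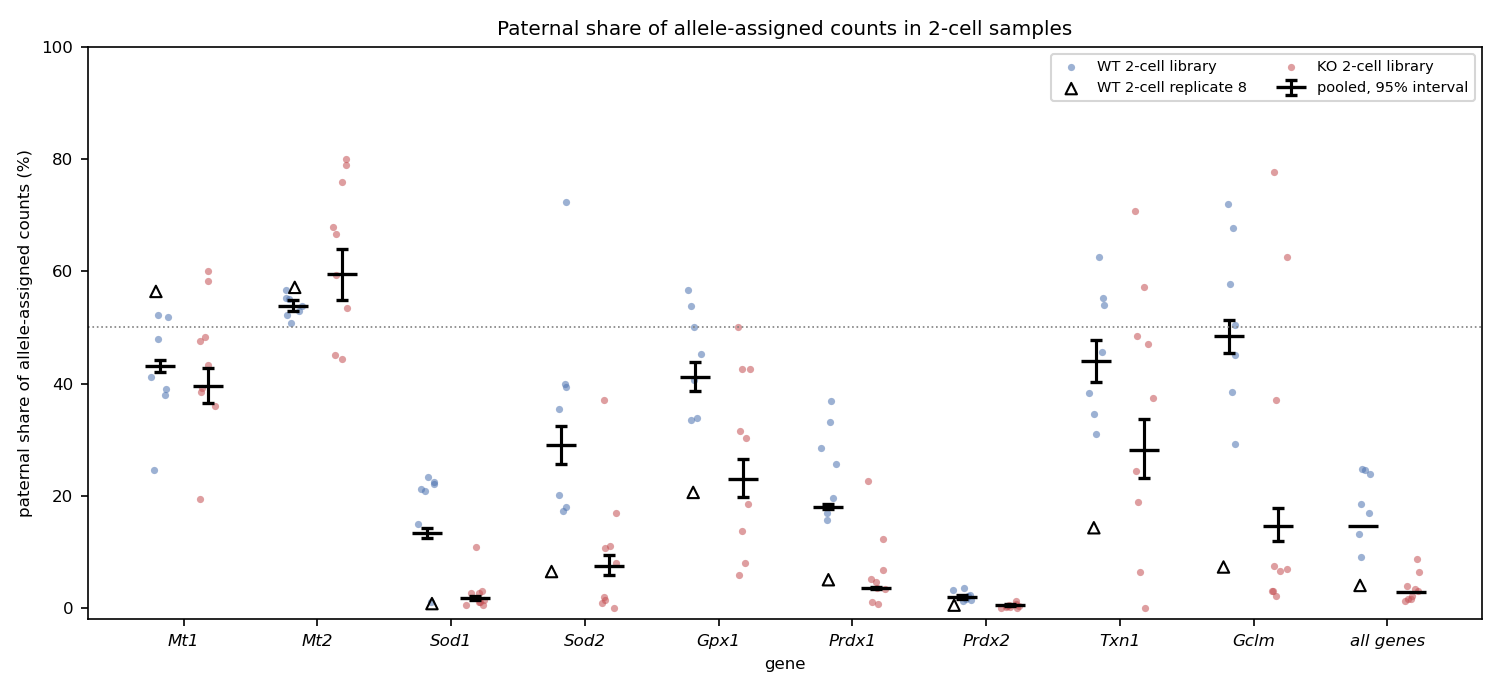
Paternal share of allele-assigned counts in percent for 9 members and all genes, 1 point per 2-cell sample (blue WT, red KO, open triangle WT replicate 8), with pooled shares and 95% Clopper-Pearson intervals as bars. Pooled Mt1 and Mt2 lie between 39.6 and 59.5% in both genotypes, whereas Sod1, Sod2, Prdx1 and Gclm are lower in KO; samples with few assigned counts scatter widely.

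Across samples Mt1 and Mt2 moved together. Spearman's rho between them was 0.96 over the 7 WT 2-cell samples other than replicate 8 and 0.85 over the 9 KO samples. These points share the library and its depth, and the values are descriptions only. Gpx1 followed Mt1 at 0.64 and 0.13 in the same sets, and Gclm at 0.14 and -0.72. Against the paternal share of all genes, which differed between samples, Prdx1 ran opposite in both genotypes, at -0.82 over the 7 WT and -0.82 over the 9 KO samples. Gpx4 ran with it, at 0.82 and 0.70, Mt1 at 0.36 and 0.72, and Mt2 at 0.54 and 0.77. Sod2 gave 0.29 in WT and -0.90 in KO.

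Over all 17 2-cell samples, 8416 genes were ranked by the likeness of their level to that of each metallothionein. The 3 genes most like Mt1 were Mt2, Myg1 and Tomm5, at a Spearman's rho of 0.95 each. The 3 most like Mt2 were Atf1, Epcam and Rps15, at 0.97, 0.96 and 0.96. All 5 other genes were higher in the WT pool than in the KO pool, so the genotype is part of each likeness. Over the 33 oocytes, where Mt1 and Mt2 had almost no counts, the closest genes were Psma6, Zfp322a and Minos1 for Mt1 at 0.72 to 0.74, and Kitl, Cse1l and Ccdc85a for Mt2 at 0.56 to 0.57.

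The other genes of metal handling and redox defence, 57 in 5 lists, were followed beside the members. In 2-cell samples 43 of them were tested, 17 were at least 2-fold lower and 4 at least 2-fold higher in KO (31.6% and 5.96% of all genes), with a median log2 ratio of -0.52 against -0.35 for all genes. The lowest were Ccs, the chaperone that loads copper onto Sod1, from 14.9 CPM in WT to 0.738 CPM in KO (-4.33), and Prdx4, the peroxiredoxin of the endoplasmic reticulum, from 116 to 11.7 CPM (-3.31). The highest were Gstp1, a glutathione transferase, from 26.9 to 83.1 CPM (1.63), and Txnrd3, a thioredoxin reductase, from 3.52 to 10.3 CPM (1.55).

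By list, 3 of 8 tested metal handling genes, 4 of 8 superoxide and peroxide enzymes, 2 of 8 thioredoxin and glutaredoxin genes, 2 of 7 glutathione supply genes and 6 of 12 of NRF2 and its targets were 2-fold lower in KO, against the 31.6% of all genes. Higher were 2 thioredoxin and glutaredoxin genes, 1 glutathione supply gene and 1 gene of the NRF2 list. From MII to 2-cell in WT, 24 of 43 were 2-fold higher and 4 lower, against 41.1% and 14.3% of all genes. Prdx4 had a log2 ratio of 9.17 and Gsto1, another glutathione transferase, 7.96, while Txnip, the inhibitor of thioredoxin, was at -3.37 and Txnrd3 at -2.45. In KO, 11 of 31 were higher and 2 lower, against 23.6% and 17.4% of all genes. The highest were Hmox1, the haem oxygenase (6.74), and Prdx4 (5.46), with Txnip (-4.08) and Txnrd3 (-1.28) lower. Between KO and WT oocytes 1 of 25, Gpx6, was 2-fold lower (-1.29), at 7.63 against 18.6 CPM, where 2.39% of all genes were.

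The 8 markers of the 2-cell stage summed to 846 to 1778 CPM in WT (median 1560) and 168 to 2237 CPM in KO samples (median 798), so the KO range enclosed the WT range. Of the 8, 4 were 2-fold lower in KO, such as Obox6 at a log2 ratio of -4.41, 1 was higher and 3, Zscan4c, Zscan4d and Zfp352, were within 2-fold. The oocyte markers were at 3471 to 9579 CPM in WT (median 5306) and 5135 to 16778 CPM in KO samples (median 9333), and overlapped. Replicate 8 was at 934 CPM for the 2-cell and 9579 CPM for the oocyte markers, the highest WT value of the latter. Their part in the results on the members was not tested.

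In epiblast, 8 of the 10 members were higher in IVC than in E6.5 samples by edgeR's quasi-likelihood test at a Benjamini-Hochberg adjusted p under 0.05, and none was lower. Among 11565 genes tested 12% were higher and 23.5% lower. The median log2 fold change was 3.00 over the members and -0.85 over all genes. Without E6.5 replicate 1 the log2 fold changes of these 8 members ran from 1.96 for Prdx2 to 5.00 for Mt2. Without E6.5 replicate 2 they ran from 2.26 for Prdx2 to 5.53 for Mt2. The medians of all genes in these fits were -1.08 and -0.90, and Mt2 and Gpx4 lost their calls in both. The 2 samples a group are not said to come from separate embryos or litters, so p-values measure the spread between these samples only, which may be technical.

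Mt1 was at 239 and 253 CPM in IVC and at 9.47 and 13.47 CPM in E6.5 epiblast. Its log2 fold change was 4.70 ± 0.33 (SE; edgeR adjusted p = 0.00655), so it rose clearly beyond the spread of the replicates. Mt2 was at 84.0 and 84.8 CPM in IVC and 2.11 and 3.04 CPM in E6.5, a log2 fold change of 5.31 ± 0.59 (edgeR adjusted p = 0.0167). Both IVC samples were far above both E6.5 samples for both genes. The call of Mt2 was lost without E6.5 replicate 1 (edgeR adjusted p = 0.160) or 2 (0.121).

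Sod1 was at 1454 and 1391 CPM in IVC and 109 and 74.4 CPM in E6.5, and rose by 4.22 ± 0.29 (edgeR adjusted p = 0.00653). Sod2 was at 155 and 80.4 CPM in IVC and 47.3 and 50.8 CPM in E6.5. Its log2 fold change of 1.54 ± 0.48 did not pass (edgeR adjusted p = 0.0808), although the groups did not overlap. It passed without IVC replicate 1 (0.0180) or 2 (4.23e-05), each fit resting on 1 lone IVC sample assumed to vary like the E6.5 group, and by DESeq2 (0.0444).

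Gpx1 was at 738 and 1257 CPM in IVC and 89.4 and 109.9 CPM in E6.5, a log2 fold change of 3.595 ± 0.33 (edgeR adjusted p = 0.0114). Gpx4 was at 113 and 126 CPM in IVC and 20.6 and 22.8 CPM in E6.5, a log2 fold change of 2.73 ± 0.38 (edgeR adjusted p = 0.0251). Both rose, with no overlap. The call of Gpx4 was lost without E6.5 replicate 1 (0.259) or 2 (0.209), and with the replicate block (0.0740).

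The peroxiredoxins and thioredoxin rose as well. Prdx1 was at 3902 and 3762 CPM in IVC and 449 and 548 CPM in E6.5, a log2 fold change of 3.22 ± 0.13 (edgeR adjusted p = 0.00379). Prdx2 was at 733 and 957 CPM in IVC and 206 and 249.9 CPM in E6.5, a log2 fold change of 2.16 ± 0.20 (edgeR adjusted p = 0.0115). Txn1 was at 459 and 586 CPM in IVC and 76.0 and 109 CPM in E6.5, a log2 fold change of 2.78 ± 0.26 (edgeR adjusted p = 0.0121). Groups overlapped for none of the 3. Gclm did not pass, at 49.6 and 48.3 CPM in IVC and 48.9 and 47.5 CPM in E6.5, a log2 fold change of 0.30 ± 0.46 (edgeR adjusted p = 0.694).

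**Figure D5:**
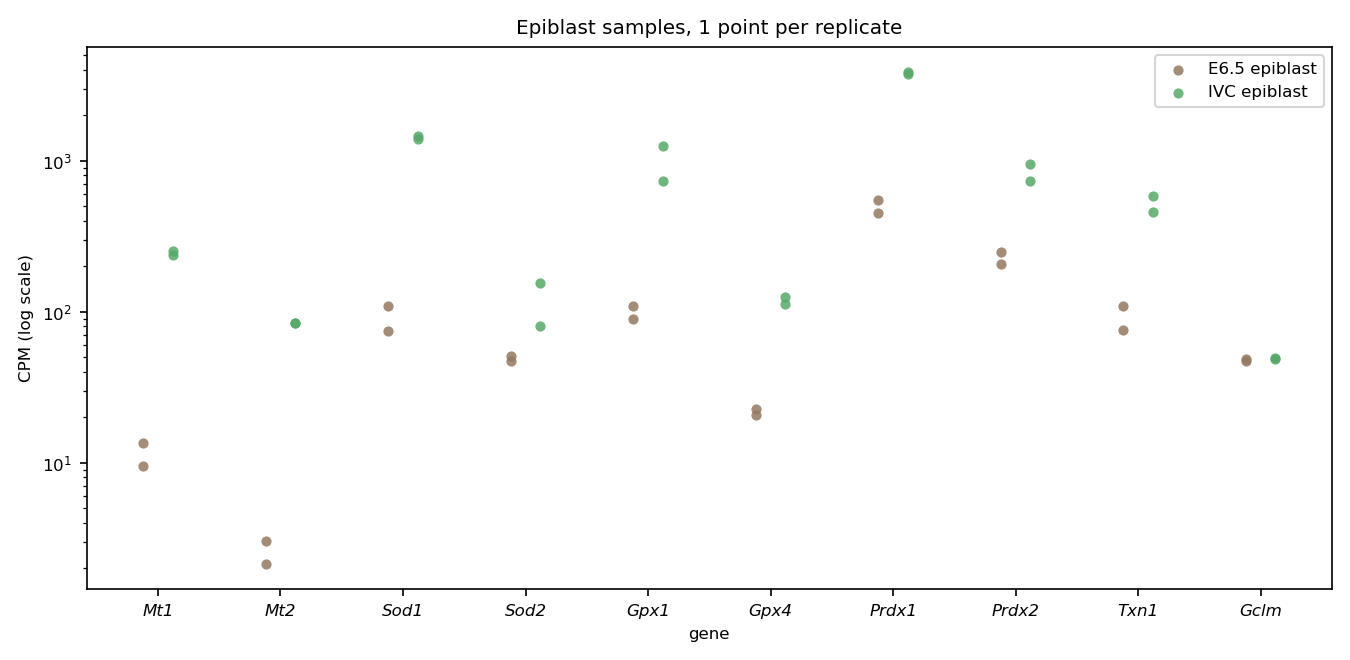
CPM on a log axis of the 10 members in the 2 E6.5 (brown) and 2 IVC (green) epiblast samples, 1 point per sample. IVC samples lie above E6.5 samples for every member but Gclm, whose 4 values lie between 47.5 and 49.6 CPM.

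Of the 57 other genes 52 were tested in epiblast, and 7 rose and 3 fell in IVC, against 12% and 23.5% of all genes. The largest rises were those of Fth1, the ferritin heavy chain, at 1479 and 1596 CPM against 145 and 112 CPM (log2 fold change 3.85 ± 0.22, edgeR adjusted p = 0.00486), and of Slc39a1, a zinc importer, at 819 and 507 CPM against 60.5 and 78.0 CPM (3.54 ± 0.35, edgeR adjusted p = 0.0126). Txnrd1, which recharges thioredoxin, fell, at 144 and 153 CPM against 424 and 473 CPM (-1.32 ± 0.17, edgeR adjusted p = 0.0222). Slc30a6, a zinc transporter, had no count in either IVC sample and 9.81 and 14.5 CPM in E6.5, at least 89.1-fold lower against a floor of 3 counts over the group (edgeR adjusted p = 0.0398). The calls of Txnrd1 and Slc30a6 were both lost without either E6.5 replicate. By list, 1 of 8 metal handling genes rose and 2 fell, 2 of 10 superoxide and peroxide enzymes rose, 1 of 12 thioredoxin and glutaredoxin genes rose and 1 fell, none of 8 glutathione supply genes passed, and 3 of 14 of NRF2 and its targets rose.

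The epiblast label was checked against markers. Pou5f1, the pluripotency factor, was at 448 and 479 CPM in IVC and 456 and 534 CPM in E6.5. The 8 epiblast markers summed to 1612 and 1812 CPM in IVC and 4758 and 5443 CPM in E6.5. Dnmt3b held most of that difference, at 479 and 396 CPM in IVC against 3508 and 4110 CPM in E6.5. Nanog, Otx2, Pou3f1 and Utf1 were lower in both IVC samples too. Tdgf1 was higher, at 422 and 713 CPM against 232 and 178 CPM, and Pou5f1 and Fgf5 overlapped. Trophoblast markers summed to 6387 and 6468 CPM in IVC, with 6 of 8 detected and Cdx2 and Tpbpa at 0, against 175 CPM in both E6.5 samples. Of that, Prl3d1, the placental lactogen of giant cells, gave 6254 and 6259 CPM in IVC and 0 and 4.62 CPM in E6.5. Gata3 and Plac1 were higher in IVC as well, whereas Eomes, at 62.0 and 0.293 CPM against 171 and 155 CPM, and Elf5 were lower and Krt7 overlapped. Visceral endoderm markers summed to 576 and 619 CPM in IVC, with Cer1 at 0, against 170.5 and 205 CPM in E6.5, and 5 of the 10 (Ttr, Afp, Apoa1, Rbp4 and Sox17) were higher in both IVC samples. Ttr, a carrier protein made by that tissue, was at 229 and 201 CPM against 7.61 and 2.99 CPM. Apob, at 30.5 and 39.8 CPM against 67.7 and 85.1 CPM, Cubn, at 4.43 and 16.1 CPM against 63.5 and 74.3 CPM, and Cer1 were lower in both, and Amn and Foxa2 overlapped. IVC samples had a count for 8380 and 8990 genes and E6.5 samples for 13101 and 13698. The marker sums and gene numbers differ along the same contrast as the members, and their part in the members' results was not tested. Fewer cells of a type and less RNA per cell cannot be told apart in such bulk samples.

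Across all 6 groups, the pooled Mt1 level ran from 0.361 CPM in KO and 0.781 CPM in WT oocytes, which overlap, through 12.2 CPM in E6.5 epiblast and 33.05 CPM in KO 2-cell samples to 246 CPM in IVC epiblast and 358 CPM in WT 2-cell samples. Of the E6.5 values 1 lies below every KO 2-cell sample and 1 within their range, and apart from replicate 8 the IVC values lie below every WT 2-cell sample. Mt2 had the same order of groups, and both E6.5 samples, at 2.73 CPM pooled, lay below all 9 KO 2-cell samples. Epiblast and oocyte tables come from separate preparations, so levels set across them are shares of each library and were not tested.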

How the data were processed

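RNA libraries of 54 of the 209 samples in the series had gene counts and were used; the other 155 were not analysed here. The authors deposited raw read counts per gene symbol, with total, maternal and paternal tables for oocytes and 2-cell samples. Per the submitters' processing notes, which give no role or order, the RNA-related tools included featureCounts 2.0.1, cutadapt 1.15, HTSeq 0.10.0, Trim Galore 0.6.6 and STAR 2.6.0a, and the build was mm9. The 92 spike-in rows were left out of totals. In the allele tables the 33 oocyte columns were not split (maternal equal to total, paternal at 0).

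The members and gene lists were chosen with earlier results of these data known. Other genes were named by rule: per comparison the 2 largest and 2 smallest ratios among listed genes past the threshold, and the 3 genes most like Mt1 and Mt2. Pooled ratios have exact conditional Poisson intervals and shares exact Clopper-Pearson intervals, both at 95%; reads carry no molecular identifiers, so these cover counting error only. Epiblast counts were tested across all genes with edgeR 4.0.16 (quasi-likelihood, TMM, filterByExpr, Benjamini-Hochberg adjustment; limma 3.58.1, R 4.3.3), checked on simulated data. DESeq2 1.42.0 was an alternative. Deviations of same-numbered epiblast samples from their group means had a correlation of 0.00606, and replicate numbers were therefore not treated as a pairing.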

Additional observations from a re-analysis of the deposited data

Results flagged for a closer look

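Txn1 in WT 2-cell replicate 8 was at 8.15 CPM, and the nearest of the 8 WT samples was at 48.6 CPM. The gap was large for the range of the group. In all 20 groups of member values were screened, and chance marks about 1 in 20 such groups. The same sample lay within the KO range for 8 of the 10 members.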

How the results depend on the processing

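Between KO and WT oocytes 1 member passed 2-fold by the median of per-library CPM and 1 in low-Rn45s libraries alone, against 0 in all libraries. From MII to 2-cell in KO the members past 2-fold numbered 3 by TMM, 3 by DESeq2 size factors and 8 against low-Rn45s oocytes, against 5. The shares of all genes past 2-fold under these KO settings are not given here. In epiblast, 631 genes were lower with no filter beyond 1 count, against 2717. With the replicate block 893 genes were higher and 361 lower, and Gpx4 lost its call. Leaving out 1 epiblast sample gave 612 to 2880 genes higher and 118 to 5476 lower; the low ends came without an E6.5 sample, and the lone sample left was assumed to vary like the other group. The share of calls that were higher was 33.8%, 60.5% with no filter, 71.2% with the block, and 83.0 and 84.6% without either E6.5 sample. The cause of these shifts was not tested. Spike-in scaling, the fits without replicate 8 combined with spike-in oocytes, and the fit without marker genes were chosen after seeing the data; the last drops only those genes and leaves any other RNA of such cells in place. Counts of 0 to 39 per oocyte limit Mt1 and Mt2 there.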
